A study of Mus musculus with 8 samples.

Results

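The Zic genes encode zinc finger transcription factors, and 4 of them (Zic1, Zic2, Zic4 and Zic5) are examined here through the open chromatin around them. The members were the peaks of 3 deposited ATAC-seq peak lists that overlapped a Zic gene body or the 50 kb on either side of it. Zic1 and Zic4 lie side by side on chromosome 9, and Zic2 and Zic5 on chromosome 14, so each pair was treated as 1 locus. The WT list held 47 such peaks of 152984, the mutant list 56 of 174407 and the het list 35 of 106974. Joined within 300 bp across the lists, they made 48 regions of 190582.

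ATAC-seq marks open DNA by the insertion of sequencing adapters with the Tn5 transposase. It was run on granule neuron progenitors (GNPs), the dividing precursors of cerebellar granule neurons, freshly isolated from mouse cerebella at postnatal day 7 on a percoll gradient, from pups whose sex was not distinguished. The mice carried conditional (floxed) alleles of Chd7, which encodes an ATP-dependent chromatin remodelling enzyme. Per the labels and the study's methods, WT stands for Chd7 f/f (3 libraries), mutant for Atoh1-Cre::Chd7 f/f (3 libraries) and het for Atoh1-Cre::Chd7 f/+ (2 libraries). Atoh1-Cre is active in the granule cell lineage and not in Purkinje cells, and the gene that drives it, Atoh1, is itself a GNP gene. The study found some Chd7 protein left in the posterior lobe and gives weaker recombination by this Cre line as the probable reason. The labels give the strain as C56Bl6/J, whereas the methods give C57BL/6N. The replicates of WT and mutant were described as technical.

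Each list was called on the pooled libraries of its genotype, so that every group is represented by 1 measurement. The spread between libraries is therefore unknown, and genotypes are compared by description only. The intervals given are 95% intervals for counting error only, since tags amplified by PCR and neighbouring peaks are not independent molecules. After filtering, WT had 50394313 tags, mutant 51030229 and het 30923002. WT and mutant were called in nearly the same way, but their tags were 107 bp and 76 bp long. The het list came from another alignment and another calling mode that extended each tag to 200 bp, against 90 bp in WT and 88 bp in mutant. Peak heights of het are therefore given beside the others but not compared with them, and processing and genotype cannot be told apart for het.

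In vertebrates several Zic genes stand in head-to-head pairs, whose members share the DNA between and around them. Their products bind DNA through zinc fingers related to those of the Gli factors. Zic1 and Zic2 are known as genes of the neural tube, of cerebellar granule neuron progenitors and of the granule neurons that these become. Joint loss of human ZIC1 and ZIC4 has been linked to a malformation of the cerebellum, and loss of ZIC2 to a failure of the forebrain to divide.

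Zic1 (ENSMUSG00000032368.14) lies on the minus strand of chromosome 9 from 91358058 to 91365810 (mm10, GENCODE M21). Zic4 (ENSMUSG00000036972.14) runs the other way from 91362413 to 91389348, so that the annotated bodies overlap, and peaks in the overlap cannot be given to one gene. Zic5 (ENSMUSG00000041703.7) lies on the minus strand of chromosome 14 from 122456795 to 122465677, and Zic2 (ENSMUSG00000061524.8) on the plus strand from 122475435 to 122479852. The windows examined were 131.291 kb around Zic1/Zic4 and 123.058 kb around Zic2/Zic5. Besides the Zic genes they hold long non-coding genes, among them Gm29478 at the end of the Zic1/Zic4 window and 2610035F20Rik between Zic5 and Zic2, and the protein-coding gene models Gm5089 beside Zic5 and Gm10837 past Zic2.

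The DNA under the start-site peaks of Zic1, Zic4 and Zic5 is shown first, because these were among the tallest peaks of both loci. Sequences are from the GRCm38 assembly in the direction of each gene, cut so that they end before the annotated transcript. Capitals mark letters that match a searched motif on either strand, namely CAGCTG or CATCTG (E-boxes, bound by proneural factors), CCTGCTG (a Zic core), GGGTGGT (a Gli core), ACAAAG (a Sox core) and TAATTA (a homeodomain core). Paired NFI motifs facing each other were also searched. A match is a description of letters, not a binding site.
Zic1 upstream, chr9:91365811-91366110, minus strand: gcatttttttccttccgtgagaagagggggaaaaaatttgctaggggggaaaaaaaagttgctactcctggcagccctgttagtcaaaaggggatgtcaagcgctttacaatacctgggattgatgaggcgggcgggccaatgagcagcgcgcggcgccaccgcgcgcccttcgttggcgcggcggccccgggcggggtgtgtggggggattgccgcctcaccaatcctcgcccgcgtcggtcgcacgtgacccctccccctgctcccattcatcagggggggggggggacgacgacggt
Zic4 upstream, chr9:91378448-91378641, plus strand: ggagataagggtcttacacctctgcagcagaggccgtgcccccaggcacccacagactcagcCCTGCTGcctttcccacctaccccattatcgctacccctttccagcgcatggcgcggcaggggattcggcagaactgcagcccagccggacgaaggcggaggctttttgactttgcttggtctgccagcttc
Zic5 upstream, chr14:122465678-122465779, minus strand: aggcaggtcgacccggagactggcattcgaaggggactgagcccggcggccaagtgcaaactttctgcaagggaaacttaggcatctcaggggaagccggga
All 3 stretches were GC-rich, and those before Zic1 and Zic5 held more CpG dinucleotides for their C and G content than that before Zic4. The 300 bases before Zic1 had 63.3% GC and 27 CpGs, 0.910 of the number that their C and G content would give, and none of the searched motifs. The Zic5 stretch had 60.8% GC and 6 CpGs over 102 bases (0.662). The Zic4 stretch had 61.9% GC, 9 CpGs over 194 bases (0.494) and 1 CCTGCTG, the only Zic core in these 3 sequences.

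At Zic1, the start was covered by a tall peak in every list. The peak at chr9:91365737-91366560 was 83 tags high in WT, and its summit lay 156 bp upstream of the longest transcript. Its counterpart was 88 tags high in mutant and 116 tags in het. Scaled to RPM (tags per 1000000 tags of the list), the mutant height was 1.05 times the WT height, with an interval of 0.767 to 1.43 that holds equality. A neighbouring peak at chr9:91364793-91365482, inside Zic1, was 47 tags high in WT and 46 tags in mutant. No list held a peak within 1 kb of the internal Zic1 start at 91363054. A peak in the Zic1 body, chr9:91361868-91362037, lay before the most upstream Zic4 start and was 39 tags high in WT, 37 in mutant and 47 in het.

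Zic4 has 12 annotated transcripts with different starts, and these did not look alike. The start at 91378642 lay inside the peak chr9:91378448-91378923, which was 58 tags high in WT, 56 in mutant and 78 in het. A second peak just before it, at chr9:91377555-91378028, was 60 tags high in WT, 63 in mutant and 65 in het. The start at 91382410 had its nearest peak 787 bp upstream in WT, at chr9:91381366-91381821. This peak was 67 tags high in WT, 70 in mutant and 111 in het. Its WT summit lay closer to another annotated start, that of Gm37477, at 221 bp. The start at 91369498 was covered in WT and mutant by a narrow peak of 41 tags in each list, and het had no peak within 1 kb of it. The starts at 91371213 and 91371350 were covered in mutant alone, by a peak of 32 tags at chr9:91371124-91371391 with a -log10 q of 4.96, where the calling threshold is a q of 0.05. Its fold enrichment, the height over the local background, was 2.72, and WT and het had no peak within 300 bp of it.

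Away from Zic starts, the tallest peak of the Zic1/Zic4 window was chr9:91350821-91351314, at 68 tags in WT, 78 in mutant and 128 in het. It lies past the end of Zic1, near the start of the short transcript A730094K22Rik. A group of peaks stood between it and Zic1. The tallest of them, chr9:91355403-91356094, was 49 tags high in WT, 60 in mutant and 65 in het. On the other side, an intron of Zic4 held chr9:91383578-91383887, at 54 tags in WT, 61 in mutant and 74 in het, and an exon next to it held chr9:91384163-91384502, at 47, 54 and 76 tags. Farther out, chr9:91400723-91400930 (40 tags in WT, 49 in mutant, 54 in het) lay 18.4 kb from the nearest Zic4 start. The peak chr9:91413941-91414507 (39, 48 and 56 tags) lay 31.8 kb from it, within an intron of Gm29478. These last 2 peaks had less background around them and stood out more from it, with WT fold enrichments of 6.86 and 6.76 against 3.37 for the peak in the Zic4 intron.

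**Figure D1:**
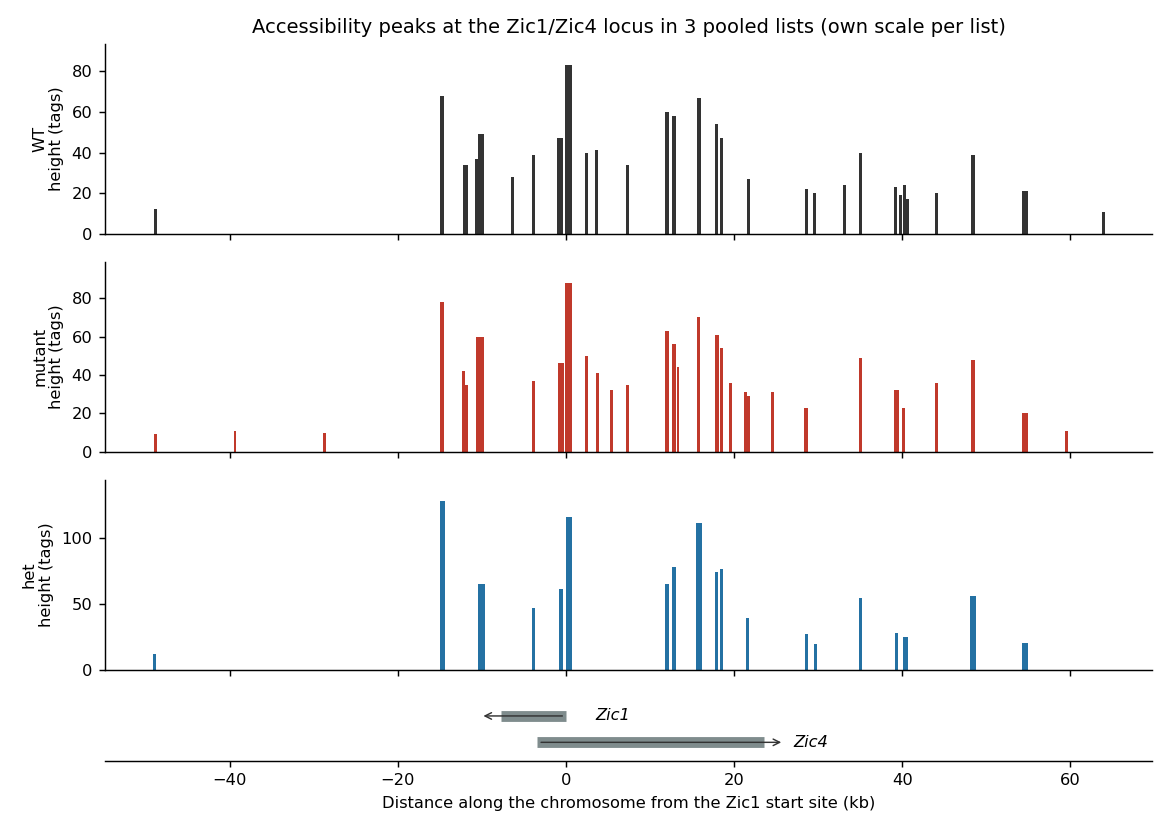
Peak heights in tags (y, a separate scale for each list) at the Zic1/Zic4 locus in WT, mutant and het, against distance in kb along the chromosome from the Zic1 start (x). Bars span the called peaks, drawn at least 0.35 kb wide, and grey bars with arrows are the genes. The tallest WT and mutant peak is the Zic1 start, at 83 and 88 tags, and the peaks thin out toward both ends of the window.

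At Zic2, the peak chr14:122473897-122475544 covered the annotated start but had its summit 1140 bp upstream, in 2610035F20Rik, which is transcribed the other way. It was the tallest peak of all at the Zic loci, with 96 tags in WT, 94 in mutant and 168 in het. The mutant height in RPM was 0.967 times that of WT (interval 0.720 to 1.30). In mutant a second, separate peak of 32 tags was called at chr14:122475692-122475819, just inside Zic2, with a -log10 q of 2.33. The internal start at 122478100 had no peak within 1 kb in any list.

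Zic5 faces Zic2 across the space between them. Its start lay in the peak chr14:122464414-122465779, which was 66 tags high in WT, with 66 tags in mutant and 89 in het (mutant over WT in RPM 0.988, interval 0.691 to 1.41). The peak of het was wider, from 122464116 to 122465826, and took in a smaller peak inside Zic5 that WT and mutant listed separately, chr14:122464115-122464281 in WT, at 35 tags in WT and 47 in mutant. The summit lay at 122465481 in WT and farther into the gene, at 122464959 and 122464938, in mutant and het. No list held a peak within 1 kb of the internal start at 122460021.

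Outside the Zic genes, the Zic2/Zic5 window had a compact group of peaks past the end of Zic5, at and beside the start of Gm5089. The WT members of the group stood between 122450852 and 122453961 and were 38 to 46 tags high. The first of them, chr14:122450852-122451258, had its summit inside Gm5089, 114 bp from its start. The highest, chr14:122451810-122452059, had its summit 818 bp from that start. It had 46 tags in WT, 47 in mutant and 63 in het, and chr14:122453548-122453961 had 38, 49 and 46. An isolated peak farther on, chr14:122426912-122427544, had 41 tags in WT, 44 in mutant and 54 in het. Its WT fold enrichment of 9.35 was the highest of the 47 WT peaks. Past Zic2, chr14:122482198-122482932 had 40 tags in WT, 39 in mutant and 43 in het, and chr14:122490518-122491383, at the start of Gm10837, had 44 in WT, 37 in mutant and 48 in het.

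**Figure D2:**
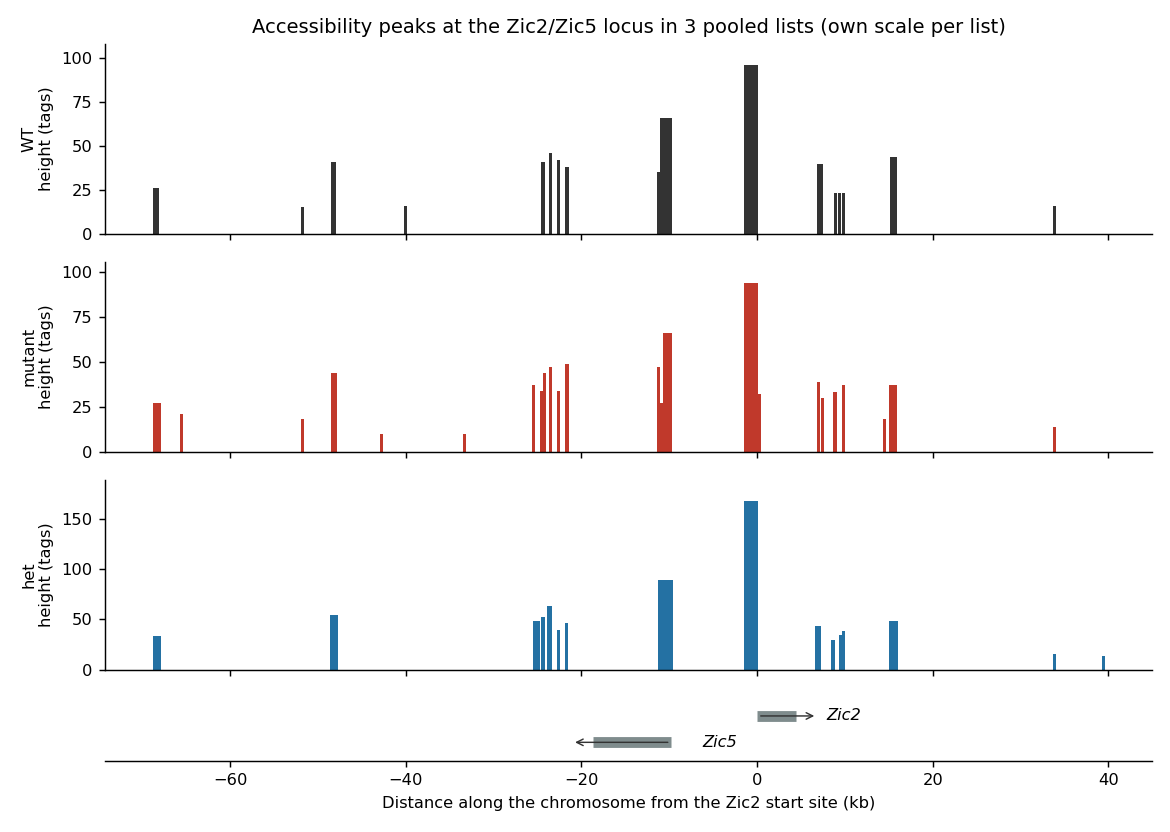
Peak heights in tags (y, a separate scale for each list) at the Zic2/Zic5 locus in WT, mutant and het, against distance in kb along the chromosome from the Zic2 start (x), drawn as for the other locus. The Zic2 start is the tallest peak in every list, at 96, 94 and 168 tags, and the Zic5 start comes next in every list.

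Both loci were set on a high and broad level of tags. The median Zic peak of WT was 37 tags high where the median of the whole list was 16. Its fold enrichment was lower, with a median of 3.52 against 4.85, because the background around these peaks was high. Pileup and fold enrichment together give the number of tags in the 10 kb around a summit. For peaks at the lowest background of their list the number is only an upper limit. This applied to 1 WT, 3 mutant and 2 het peaks of the Zic loci. This number does not depend on how far tags were extended, and it is given for the 3 lists in RPM. Het still differs in its alignment, so that processing and genotype cannot be told apart for het here either. The median Zic peak of WT had 1111 tags in its 10 kb, against 252 over all WT peaks. Of the 47 WT peaks, 24 (51.1%) lay above the 99th percentile of their list, as did 32 of 56 mutant peaks (57.1%) and 18 of 35 het peaks (51.4%). Neighbouring windows overlap and share tags, so that these peaks are not independent counts.

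The level was highest over Zic4 and the Zic2 start. At Zic1/Zic4 the most tags lay around the summit of chr9:91381366-91381821, before the Zic4 start at 91382410 and, in WT, 221 bp from the start of Gm37477. There were 40.2 RPM in WT, 45.9 in mutant and 45.7 in het. The summit of the Zic1 start peak itself had 35.2, 37.5 and 36.2 RPM. At Zic2/Zic5 the Zic2 start peak had the most, with 32.6 RPM in WT, 35.4 in mutant and 38.5 in het. The WT summits above the 99th percentile spanned 36.5 kb at Zic1/Zic4 and 23.3 kb at Zic2/Zic5. These maxima were set beside those of 21938 windows of single protein-coding genes, each with the same 50 kb on either side. Of these windows, 36 had a higher maximum than Zic1/Zic4 in WT, 11 in mutant and 12 in het. For Zic2/Zic5 the numbers were 114, 104 and 102. The Zic windows joined 2 genes each, and windows of neighbouring genes can hold the same summit, so these are not numbers of separate loci.

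**Figure D3:**
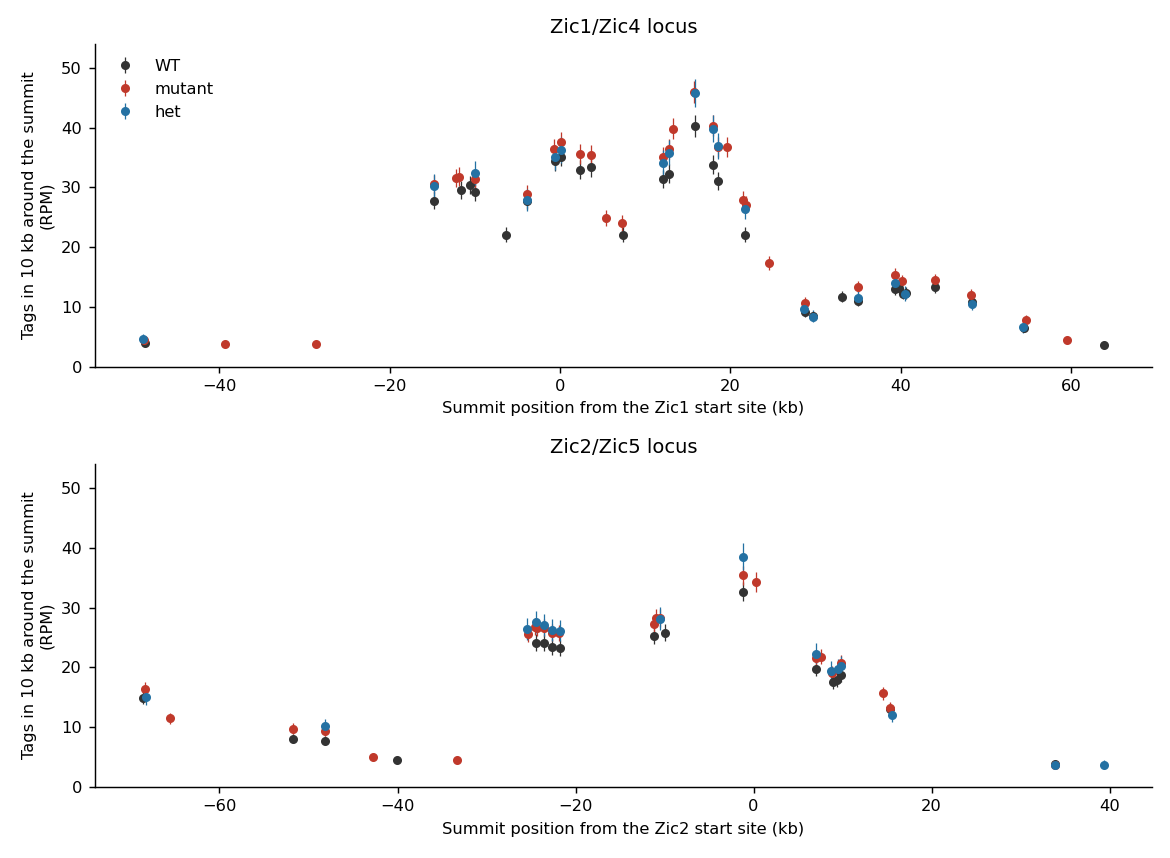
Tags in the 10 kb around each peak summit, in RPM, tags per 1000000 of the list (y), against the summit's distance in kb from the Zic1 start (upper panel) or the Zic2 start (lower panel). Points are peaks of the 3 lists and vertical lines are exact Poisson 95% intervals for counting error, and windows of neighbouring points overlap. Points at the lowest background of their list are upper limits. The highest points are 40.2, 45.9 and 45.7 RPM in WT, mutant and het at Zic1/Zic4, and 32.6, 35.4 and 38.5 at Zic2/Zic5.

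The first comparison asked which Zic peaks of WT were also called when Chd7 was deleted. Of the 47 WT peaks, 39 overlapped a mutant peak (83.0%, Wilson interval 69.9 to 91.1%) and 8 did not, where 22.8% of all WT peaks had no mutant peak. In the other direction, 42 of 56 mutant peaks overlapped a WT peak (75.0%, interval 62.3 to 84.5%) and 14 did not, against a background of 30.7%. The intervals of the Zic shares include the shares over the whole lists. The number of peaks rose from 30 in WT to 32 in mutant at Zic1/Zic4 and from 17 to 24 at Zic2/Zic5, beside a mutant list that was also longer as a whole. In such bulk preparations, a change in the share of a cell type and a change within a cell cannot be told apart.

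By -log10 q, the peaks without a partner were weak, as they were over the whole lists. There the median was 3.34 without and 9.21 with a partner in WT, and 3.81 and 10.5 in mutant. The 8 WT peaks had heights of 11 to 28 tags and a median -log10 q of 4.28, against 8.83 for those with a partner. They included chr9:91359400-91359570 in an exon of Zic1 (28 tags), which neither mutant nor het matched within 300 bp, and chr14:122435325-122435466 in Gm5089 (16 tags). The 14 mutant peaks had heights of 10 to 44 tags and a median -log10 q of 3.80, against 9.66 for those with a partner. The tallest of them, chr9:91379042-91379235 in Zic4 with 44 tags, lay beside a WT peak, within 300 bp. Others stood alone in the Zic4 body or just past it, such as chr9:91385338-91385447 with 36 tags and chr9:91390253-91390427 with 31. Of the 16 WT and 20 mutant Zic peaks with a -log10 q of at least 10, 0 lacked a partner in the other of these lists within 300 bp. Over the whole lists, 234 of 56178 WT peaks and 716 of 64000 mutant peaks of that strength lacked one.

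The second comparison asked whether the shared peaks were taller or lower in mutant. Heights were divided by the tags of each list, and the tallest overlapping mutant peak was taken. The median mutant height of the 39 shared WT peaks was 1.05 times that of WT, a log2 difference of 0.07. That of all 118098 shared peaks was 0.08. Of the 39, 26 were taller in mutant and 13 lower, where 57.6% of all shared peaks were taller. Centred on the median of all shared peaks, 19 of the 39 were taller, and by fold enrichment in place of height 15 were higher. The share of all shared peaks that were higher by fold enrichment is not given. By 1.5-fold or more, 3 were taller, against 8.37% of all shared peaks, and 0 were lower, against 3.61%. The start-site peaks of Zic1, Zic2 and Zic5 and the peak over the Zic4 start at 91378642 all had intervals that held equality.

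The peak chr9:91409800-91409977, in an intron of Gm29478 and 27.4 kb from the nearest Zic4 start, was 20 tags high in WT and 36 in mutant, a ratio of 1.78 with an interval of 1.002 to 3.24. Het had no peak there. At the other locus, chr14:122485123-122485364, past the end of Zic2, was 23 tags high in WT and 37 in mutant (1.59, interval 0.919 to 2.80), and 38 in het. A further peak, chr9:91355099-91355263, rose from 37 to 60 tags (1.60, interval 1.05 to 2.48). Its mutant partner was also the partner of the taller WT peak beside it, since mutant had 1 wide peak where WT had a pair. Next in height ratio came chr9:91404966-91405163 (23 and 32 tags), chr14:122484247-122484416 (23 and 33) and the small peak inside Zic5 (35 and 47), and their intervals held equality. The lowest ratio was that of the lowest shared WT peak, chr9:91316854-91317085, with 12 tags in WT and 9 in mutant (0.741, interval 0.276 to 1.92). At Zic2/Zic5 the lowest were chr14:122452744-122452902 (42 and 34 tags, 0.799) and chr14:122490518-122491383 (44 and 37 tags, 0.830), and both intervals held equality, as did those of chr9:91420094-91420721 (21 and 20 tags) and chr14:122509180-122509333 (16 and 14 tags). Of all 39 intervals, 2 did not hold equality, those of chr9:91409800-91409977 and chr9:91355099-91355263, where 1.94% of all shared peaks had such an interval.

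**Figure D4:**
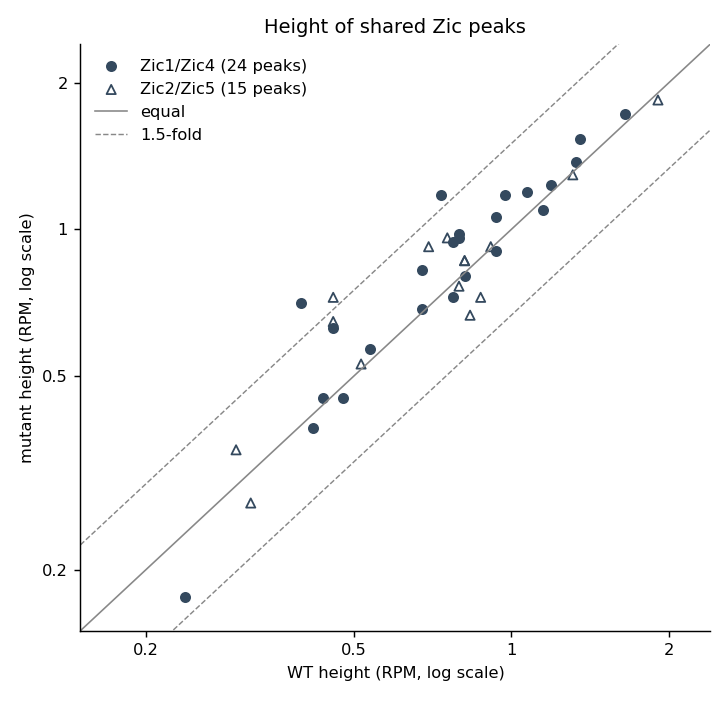
Height of the 39 WT Zic peaks that overlapped a mutant peak, in RPM of WT (x) and mutant (y), both on log scales. Filled circles are the 24 peaks of Zic1/Zic4 and open triangles the 15 of Zic2/Zic5, the solid line is equality and the dashed lines are 1.5-fold. The points follow the line of equality, and 3 lie above the upper dashed line and 0 below the lower.

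The ratios of tags per 10 kb were spread less widely than those of the peak heights. A count per 10 kb rests on many more tags than a height, and neighbouring windows share tags. The spreads are therefore not alike in counting error and are not compared further. The count per 10 kb was chosen after the data were seen. Around 38 of the 39 shared WT summits, the 10 kb held a higher RPM in mutant than in WT, where 57.4% of all shared peaks did. The median ratio was 1.10 (range 0.967 to 1.23), and that of all shared peaks was 1.02. Since neighbouring windows share tags, 15 summits whose windows do not overlap were taken from the left end of each locus. Of these, 14 were higher in mutant with a median ratio of 1.10, and 9 had an interval above equality. Over all shared peaks 9.18% had such an interval, and 21% of those above the 99th percentile of tags per 10 kb. The width of an interval depends on the number of tags, which was higher at the Zic loci than at most peaks. The ratio was 1.10 at chr9:91350821-91351314 (27.8 RPM in WT, 30.5 in mutant, interval 1.02 to 1.18). It was 1.19 at the peak in the Zic4 intron (33.8 and 40.3 RPM, interval 1.12 to 1.27) and 1.08 at the Zic2 start (32.6 and 35.4 RPM, interval 1.01 to 1.16). The window that was not higher lay far past Zic2, at chr14:122509180-122509333, with 3.83 RPM in WT and 3.70 in mutant. The mutant value is the lowest background of its list and thus an upper limit, as is the ratio of 0.967.

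Dense windows over the genome, those of the Zic loci included, differed in the same direction by less. Of 1433 shared WT peaks above the 99th percentile of tags per 10 kb, 71.2% were higher in mutant and the median ratio was 1.04. Over 7422 windows of protein-coding genes with 10 or more shared peaks, the median of the windows' median ratios was 1.01. The Zic1/Zic4 value of 1.11 stood at percentile 97.0 of them and the Zic2/Zic5 value of 1.10 at percentile 94.7. These windows were not matched to the Zic loci for their level of tags. Tag length differed between the lists (107 bp in WT, 76 bp in mutant), and its part in this difference was not tested. Because the background was higher in mutant by more than the heights, the Zic peaks stood out slightly less from their surroundings in mutant: by fold enrichment the median log2 difference was -0.06. That difference over all shared peaks is not given, so it is not read as particular to the Zic loci.

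The third comparison set het beside WT. Of the 35 het peaks, 33 overlapped a WT peak (94.3%, interval 81.4 to 98.4%), and 2 did not, where 13.3% of all het peaks did not. Of the 47 WT peaks, 35 overlapped a het peak (74.5%, interval 60.5 to 84.7%) and 12 did not, against 36.9% over the whole list. The 12 WT peaks had heights of 11 to 41 tags. They included the narrow peak at the Zic4 start of 91369498 and its neighbour chr9:91368127-91368333, with 40 tags in WT and 50 in mutant. The lone region found in het alone, chr14:122514723-122514975, was 13 tags high. The 10 kb around 29 of 35 shared summits held a higher RPM in het than in WT, where 70.6% of all shared peaks did. The median ratio was 1.09 (range 0.931 to 1.32) against 1.06 over all shared peaks.

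Across the 3 lists, 26 of the 48 Zic regions were held by all (54.2%, interval 40.3 to 67.4%), where 45.7% of all merged regions were. WT and mutant alone shared 6 regions (12.5%), against 12.7% of all merged regions. WT and het alone shared 1 (2.08%), against 1.66%, and mutant and het alone 0 (Wilson upper limit 7.41%), against 3.03%. The mutant list had 10 regions of its own (20.8%, against 20.1% of all), the WT list 4 (8.33%, against 13.3%) and the het list 1 (2.08%, against 3.52%). The 95% Wilson interval of each of these Zic shares included the share over all regions. The 26 regions included every start-site region of Zic1, Zic2 and Zic5 described above and the region over the Zic4 start at 91378642.

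By the summit, 16 WT peaks were within 1 kb of an annotated start, 6 in exons, 8 in introns and 17 intergenic. In mutant the counts were 22, 7, 9 and 18, and in het 14, 2, 5 and 14. All 8 intronic WT peaks belonged to the Zic1/Zic4 window. Apart from chr9:91383578-91383887, in Zic4, they lay in introns of the long non-coding gene Gm29478. The shares of these locations over the whole lists are not given. In 300 bases around the summit, 15 of the 47 WT peaks (31.9%) had a CpG content above 0.6 of that given by their C and G content, against 11.1% of all WT peaks. Median GC was 52.7% and 50%.

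For each searched motif but CATCTG, the interval of the Zic share held the share over all WT peaks. CCTGCTG was found in 5 of 47 windows (10.6%, interval 4.63 to 22.6%), where 15.6% of all WT peaks held it, and GGGTGGT in 2 (4.26% against 4.32%). CATCTG was found in 7 (14.9%, interval 7.41 to 27.7%, against 34.8%) and CAGCTG in 8 (17.0% against 28.6%). ACAAAG was found in 11 (23.4% against 21.8%), TAATTA in 3 (6.38% against 7.49%) and the NFI pair in 0 (against 0.114%). Each motif was counted by itself on both strands, whether or not it shared letters with another.

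A further 3 peaks, away from the Zic starts, are shown for their place in these comparisons, read on the plus strand. The first is the tallest such peak of Zic1/Zic4, the second the most enriched at Zic2/Zic5, and the last the peak with the highest mutant to WT ratio at Zic1/Zic4.
Zic1/Zic4 tall peak, chr9:91350912-91351211: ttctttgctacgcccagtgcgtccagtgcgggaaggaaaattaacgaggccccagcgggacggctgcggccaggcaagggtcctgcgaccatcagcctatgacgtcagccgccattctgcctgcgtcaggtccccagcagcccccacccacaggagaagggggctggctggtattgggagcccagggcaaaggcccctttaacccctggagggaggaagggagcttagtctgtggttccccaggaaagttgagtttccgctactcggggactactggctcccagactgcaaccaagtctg
Zic2/Zic5 enriched peak, chr14:122427111-122427410: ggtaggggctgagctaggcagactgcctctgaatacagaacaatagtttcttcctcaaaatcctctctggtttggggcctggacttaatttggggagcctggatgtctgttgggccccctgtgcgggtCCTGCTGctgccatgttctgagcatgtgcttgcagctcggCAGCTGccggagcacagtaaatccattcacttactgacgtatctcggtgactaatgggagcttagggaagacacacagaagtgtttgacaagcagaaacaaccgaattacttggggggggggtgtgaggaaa
Zic1/Zic4 highest ratio, chr9:91409800-91409977: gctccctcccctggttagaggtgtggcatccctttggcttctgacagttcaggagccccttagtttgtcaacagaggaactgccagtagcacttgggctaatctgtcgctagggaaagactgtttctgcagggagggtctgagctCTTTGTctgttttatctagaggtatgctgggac
The tall peak at Zic1/Zic4 had 13 CpGs in 300 bases and none of the motifs. The enriched peak at Zic2/Zic5 held a CCTGCTG and a CAGCTG within 300 bases. The peak with the highest ratio held 1 ACAAAG, read on the other strand as CTTTGT.

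The Zic loci were set beside 19 other transcription factor genes of granule cell development, each with the same 50 kb on either side. In WT their highest tags per 10 kb ran from 13.0 to 35.4 RPM with a median of 22.9. None exceeded Zic1/Zic4 and 2 exceeded Zic2/Zic5, namely Atoh1, the proneural factor that defines GNPs, at 35.4, and Insm1 at 34.2. The median ratio of mutant to WT tags per 10 kb ran from 0.942 to 1.15 among the 19 with a median of 1.03. It was above that of Zic1/Zic4 for 1 gene, Gli3 (1.15), and above that of Zic2/Zic5 for 2, Gli3 and Atoh1 (1.11). Mutant carries Atoh1-Cre and WT does not, and any part of this in the Atoh1 ratio was not tested. Of the 468 WT peaks counted around the 19 genes, 83 (17.7%) had no mutant peak.

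**Figure D5:**
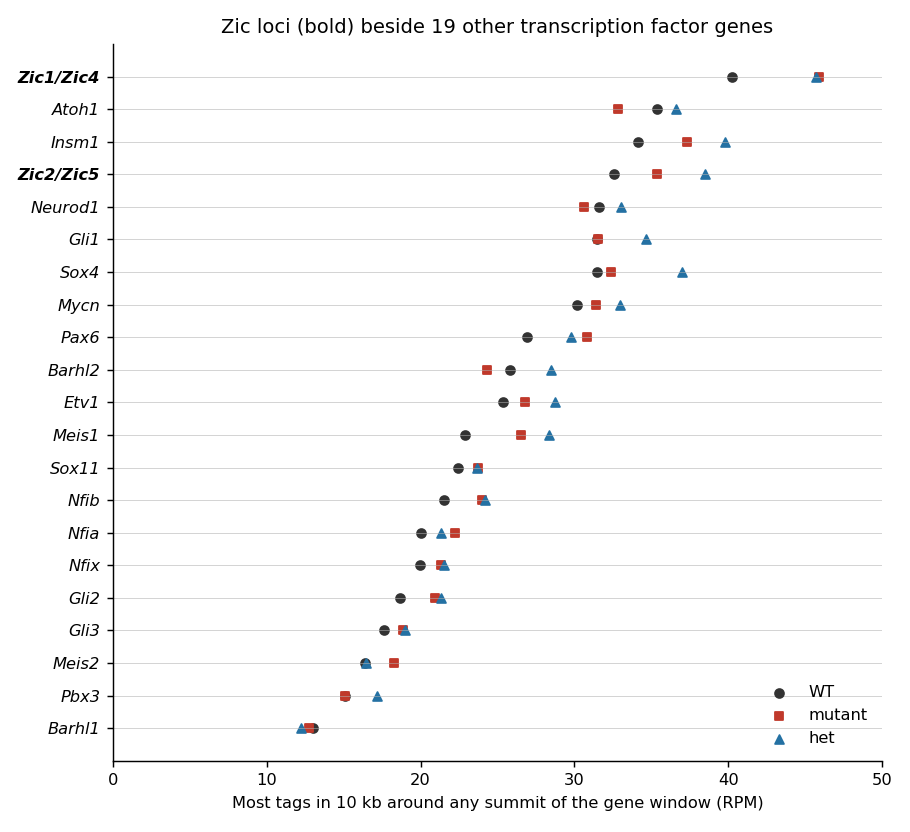
The most tags in 10 kb around any summit of each gene's window, in RPM (x), for the Zic loci and 19 other transcription factor genes (y, ordered by WT) in WT, mutant and het. Zic1/Zic4 is highest in WT at 40.2 RPM, and Zic2/Zic5 at 32.6 comes after Atoh1 and Insm1.

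By number of peaks, Zic1/Zic4 held 22.9 peaks per 100 kb in WT, 24.4 in mutant and 14.5 in het, and Zic2/Zic5 13.8, 19.5 and 13.0. Among genes with at least 20 WT peaks, the ones most like Zic1/Zic4 in peaks per 100 kb over the 3 lists were Hsp90ab1, Slc35b2, Vamp2, Slc29a1 and Kiss1r. These lay at Euclidean distances of 0.0948 to 0.119 on the log2 scale, and Hsp90ab1, Slc35b2 and Slc29a1 had the same WT maximum of 19.6 RPM, below the 40.2 of Zic1/Zic4. For Zic2/Zic5 they were Adamts7, Gm44511, Rgma, Zfp423 and Ccdc85c (0.102 to 0.162). The likeness is over 3 lists of 1 measurement each.

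Markers of cell types were read as peaks within 1 kb of their starts. All 8 granule lineage markers had such a peak in each list. Zic1 is itself one of these markers, and the other 7 had a median WT height of 52 tags. Among markers of other cerebellar cells, those of astrocytes (4 of 4) and endothelium (2 of 2) had one in WT as well, the latter at 10 to 20 tags. Of the defining genes, Pcp2 of Purkinje cells, Mog and Sox10 of oligodendrocytes and Cx3cr1 and Aif1 of microglia had 0 peaks at their starts in WT. The markers of Purkinje cells had one in 2 of 3 cases, those of oligodendrocytes in 2 of 4, of interneurons in 2 of 2 and of microglia in 1 of 3. The targeted gene offers no check of the labels here, since Chd7 held 28 peaks in WT, 36 in mutant and 20 in het, and these include peaks outside any deleted part.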

How the data were processed

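ATAC-seq peak lists of WT, mutant and het GNPs at postnatal day 7 were used as deposited by the authors. The submitters' processing notes name Trim Galore 0.4.1, STAR 2.5.0b, Bowtie 1.0.0, Picard 1.139 and MACS2 2.1.0.20150731, with mm10. Per the file headers, peaks were called without a control at a q of 0.05. The authors deposited for each peak the pileup signal at its summit (unscaled, in extended tags), the fold enrichment, a ratio to the background of 10 kb with a pseudocount of 1, and -log10 q. Of columns with values, 0 were left without a group. Peaks overlapping by at least 1 bp were shared, heights were scaled to tags per list, and 1.5-fold marked a changed height. Tags per 10 kb were worked out from pileup, fold enrichment and fragment length, a step added after seeing the data. They came out whole, within 0.0316 tags, for all peaks above the lowest background of each list (186, 189 and 114 tags). Shares have Wilson intervals, ratios exact binomial ones and tags per 10 kb exact Poisson ones. Scripts (python 3.11.15, numpy 2.4.6, pandas 2.3.3, scipy 1.17.1) were tested on simulated data. Sequences came from the RefSeq copy of GRCm38 and genes from GENCODE M21, protein-coding and long non-coding.

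Peaks named in the text were those at Zic starts, per locus the 5 tallest WT peaks away from starts, the 3 highest and 3 lowest mutant to WT ratios, and any unmatched peak with a -log10 q of at least 10. Others named, such as the tallest unmatched peaks and those at starts of other genes, were chosen after their values were seen. The members and lists were chosen with earlier results of these data known. Of the comparison genes and of the peak sequences, some are not reported here.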

Additional observations from a re-analysis of the deposited data

How the results depend on the processing

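Of 28 alternatives for the 4 shares at the Zic loci, 22 stayed within the counting interval of the reported share, and of 9 for the median height ratio 8 moved it by less than its interval. Requiring 50% reciprocal overlap gave 68.1% of WT peaks with a mutant peak, 57.1% of mutant peaks with a WT peak, 77.1% of het peaks with a WT peak and 57.4% of WT peaks with a het peak. Keeping query peaks with a -log10 q of at least 5 gave 91.7% for WT in mutant and 90% for mutant in WT. By fold enrichment in place of height, the median log2 mutant to WT difference was -0.0605, and centred on all shared peaks it was -0.01, with 19 of 39 above 0. Tags per 10 kb in place of height, chosen after seeing the data, gave 0.14. The number of regions in all 3 lists was 31 when only overlapping peaks were joined and 22 at a -log10 q of at least 5. Depth limits the height ratios: peaks of 10 to 40 tags have intervals wide enough to hold differences of 1.5-fold. No paired analysis was possible because each list was called on pooled libraries, and leaving out a replicate could not be run for the same reason.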
